A study of Drosophila melanogaster with 2 samples.

Results

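Genes of central carbon metabolism encode the enzymes that carry sugar carbon through glycolysis, the pentose phosphate pathway, glycogen and trehalose stores, gluconeogenesis and the tricarboxylic acid (TCA) cycle. A list of 35 such genes was drawn up by gene name, and all 35 were found among the 13945 protein-coding genes on the 6 chromosome arms of the Ensembl annotation. They were sorted into 6 classes: 12 genes of glycolysis, 3 of lactate and glycerol phosphate metabolism, 3 of the pentose phosphate pathway, 6 of glycogen and trehalose, 4 of gluconeogenesis and 7 of the TCA cycle. A gene was said to hold a peak when a peak summit lay within 1000 bp of the start of any of its transcripts or inside the gene. A further 59 genes of the same pathways, mostly paralogues and additional subunits, were read beside them.

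The measurement was chromatin immunoprecipitation with sequencing (ChIP-seq) of the nuclear receptor Hr78 in whole Drosophila melanogaster embryos, males and females pooled, aged 8 to 16 h. The line stably expressed Hr78 with eGFP fused to its C terminus, and the antibody was against GFP. There was 1 group of 2 biological replicates, numbered 1 and 3, from the same line, and no other genotype, stage or treatment, so no comparison between conditions could be made. Whole embryos mix all tissues, so a peak does not show in which cells the protein was bound, and a peak in a tagged line is a signal of the fusion protein.

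Hr78 is an orphan nuclear receptor of the same family as the vertebrate testicular receptors, proteins whose DNA-binding domain recognises the hexamer AGGTCA. Glycolysis splits glucose to pyruvate, the pentose phosphate pathway draws off glucose phosphate to make NADPH and ribose, and the TCA cycle oxidises the carbon that enters mitochondria. Insects store sugar as glycogen and carry it in the blood as trehalose. In Drosophila embryos another orphan nuclear receptor, ERR, is known to switch on glycolytic genes, and its extended site AAGGTCA contains the same hexamer. ERR was not measured here.

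The following sequences are shown because they are the AGGTCA sites within 50 bp of summits at 6 glycolytic, pentose phosphate, glycogen and gluconeogenic genes. Each is 30 bases long, written 5′ to 3′ on the strand that carries the hexamer found within 50 bp, with that AGGTCA in capitals. The fbp sequence also ends in tgacct, which is AGGTCA on the other strand. It is left in lower case because it lies beyond 50 bp of the summit. They were read from the RefSeq copy of genome release 6 (dm6), at X:15867944-15867973 plus strand for Gapdh2, 3R:29148338-29148367 plus strand for Pglym78, X:2146308-2146337 plus strand for Pgd, 3R:15146937-15146966 plus strand for GlyS, 2L:2134178-2134207 minus strand for GlyP and 2L:19763580-19763609 minus strand for fbp. The sites at GlyS and GlyP have an A before the hexamer and so hold AAGGTCA.
Gapdh2: catatactttatAGGTCActttaactgtct
Pglym78: cggctcccttgtAGGTCAaacttcagcaga
Pgd: caggtgatttccAGGTCActcacgcgttcg
GlyS: aaagtcaaataaAGGTCAgtggcggcgtgc
GlyP: tgtttggccagaAGGTCAaccagtttccaa
fbp: agagacagaacgAGGTCAccgatttgacct

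Gapdh2 and Gpdh1 held some of the highest summits of the list, and their full 101-bp summit windows are shown because Gapdh2 contains the hexamer and Gpdh1 does not. Both are written on the plus strand, 50 bp to either side of the summit, with AGGTCA in capitals. The Gapdh2 window is X:15867918-15868018 and has 26.7% G and C, and the Gpdh1 window is 2L:5944786-5944886 and has 51.5%. The Gpdh1 window holds none of 4 related hexamers on either strand: AGGTCA, or AGTTCA, or GGGTCA, or GGTTCA.
Gapdh2: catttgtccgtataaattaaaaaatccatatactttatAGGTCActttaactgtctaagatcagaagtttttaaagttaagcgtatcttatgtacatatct
Gpdh1: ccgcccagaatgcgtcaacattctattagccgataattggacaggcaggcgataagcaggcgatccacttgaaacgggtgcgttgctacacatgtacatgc

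Peaks were found at most of the listed genes. The authors' optimal list, which they thresholded on reproducibility between the replicates and which holds the 5723 highest pooled peaks, gave a summit to 27 of the 35 genes (77.1%, 95% exact interval 59.9 to 89.6), against 2929 of 13945 protein-coding genes (21.0%). With summits near transcript starts alone, 25 of 35 genes (71.4%) held one, against 16.5% of all genes. In the longer list called on both replicates together, 32 of 35 genes (91.4%) held a summit, against 41.1% of all genes. The metabolic genes were longer than most, with a median span of 4452 bp against 2166 bp for all genes, and had a median of 2 transcript starts against 1. Among the 7881 genes whose spans lay within the range of the listed genes, 1480 to 14928 bp, 22.5% held an optimal summit. That range only bounds the span, and neither the median span nor the number of starts was matched. The list was chosen by name with earlier results of these data known. These shares are therefore descriptions, with no test, and their intervals do not allow for that choice.

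**Figure D1:**
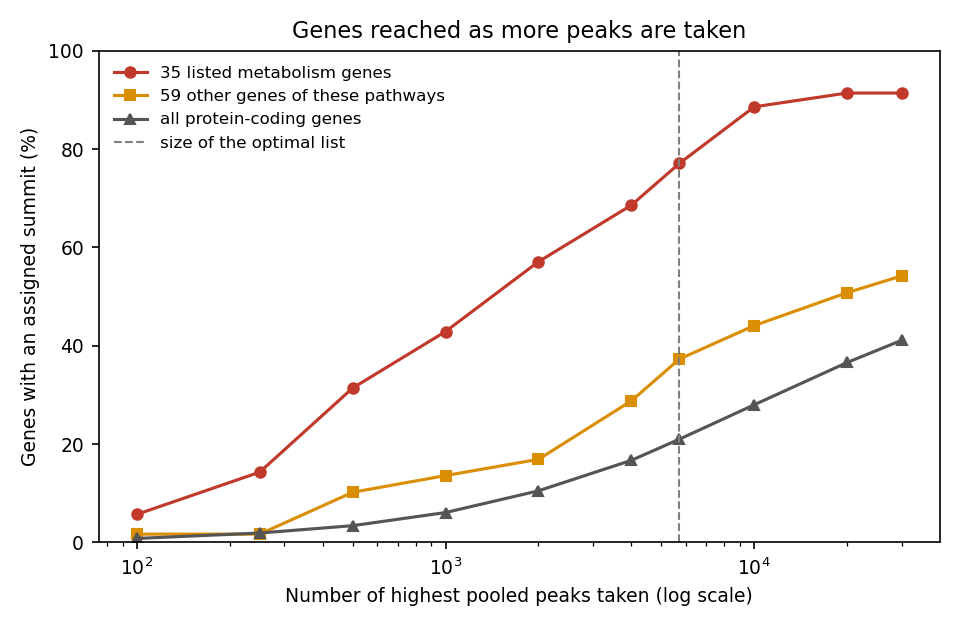
The share of genes (percent, vertical axis) that held a summit is drawn against the number of highest pooled peaks counted (horizontal axis, log scale) for the 35 listed genes, the 59 other genes of the same pathways and all protein-coding genes. At 500 peaks the shares were 31.4%, 10.2% and 3.41%, and at 5723 peaks they were 77.1%, 37.3% and 21.0%.

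The shares differed at list lengths other than that of the optimal list. The listed genes were above all genes at each of the lengths counted, with 15 of 35 genes (42.9%) against 6.08% of all genes at the 1000 highest pooled peaks and 91.4% against 36.6% at the 20000 highest. The first genes to enter were Gpdh1 and Ald1, which were already present among the 100 highest peaks.

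Signals at the listed genes were also high. The signal is the peak caller's value over the control, and across the 5723 optimal peaks it ran from 272 to 22397 with a median of 441. The files give no read counts, so the depth behind each signal is unknown, and chromatin had been sheared to 200 to 800 bp. The highest summit of each of the 27 genes had a median signal of 937, at the 86.6th percentile of the optimal list, against 552 and the 65.2nd percentile for all 2929 genes with a summit. A signal above 1000 was reached by 13 of the 27 (48.1%), against 620 (21.2%) of all genes with a summit, and one above 2000 by 4 (14.8%) against 165 (5.63%). These values take the highest of all summits of a gene, so a gene with more summits tends to have a higher one. The listed genes were longer than most and had more transcript starts, and neither was matched for the signals.

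**Figure D2:**
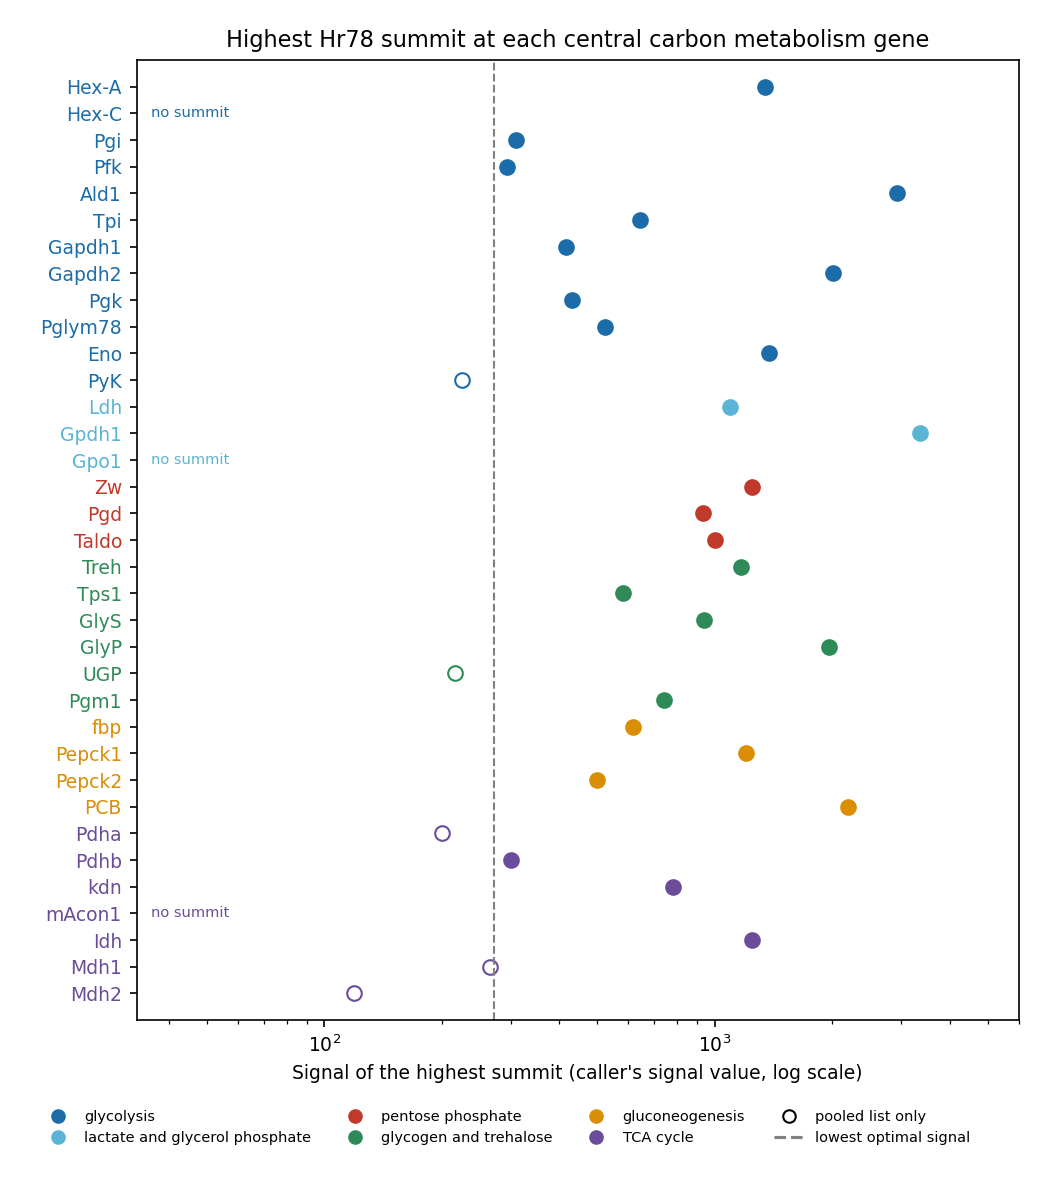
Signal of the highest summit of each of the 35 listed genes (horizontal axis, caller's signal value on a log scale), coloured by class, with open points for the 5 genes with a pooled summit only and a dashed line at the lowest optimal signal. Gpdh1 (3362), Ald1 (2933), PCB (2192) and Gapdh2 (2009) lie above 2000, Pfk (293) and Pdhb (301) lie just inside the lowest optimal signal of 272, and Mdh1 (265) lies just outside it.

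In glycolysis, 10 of 12 genes held an optimal summit (83.3%, 51.6 to 97.9), with a median highest signal of 584. The highest was at Ald1, fructose bisphosphate aldolase, which splits the sugar into its triose phosphates. Its summit at 3R:26261486, in a 5′ UTR 74 bp upstream of a transcript start, had a signal of 2933 and ranked 60 of 5723. Its signal was 1666 (rank 58) in replicate 1 and 1395 (rank 54) in replicate 3. Ald1 had 3 further summits, with signals of 1345, 653 and 329, and they lay near several of its alternative starts.

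Gapdh2 encodes glyceraldehyde phosphate dehydrogenase, the enzyme that makes the first NADH of the pathway. Its single summit at X:15867968, outside the gene and 177 bp upstream of its start, had a signal of 2009 and rank 146. The replicate signals were 1028 (rank 181) and 1004 (rank 128) in replicates 1 and 3. The paralogue Gapdh1 was much lower, with a signal of 415 at 2R:7793610, and that summit lay 15 bp from the start of PolZ1 and -230 bp from its own. Gapdh1 was the only listed gene whose highest peak lacked a peak in a replicate list: it had a signal of 268 in replicate 1 and none in replicate 3.

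Eno and Hex-A followed. Enolase, which makes phosphoenolpyruvate, had a summit of 1381 at 2L:1727916 in an intron, 199 bp upstream of a start, and a second of 370 within the same region. Hexokinase A, which traps glucose as its phosphate, had 1343 at X:9585485, 190 bp upstream of its start, and a second of 345 close to the start itself. In replicates 1 and 3 the main Eno summit had 785 and 613 and that of Hex-A had 770 and 565, so both stood among the 447 highest summits of each replicate.

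The remaining glycolytic summits were of lower signal. Tpi, triose phosphate isomerase, had 643 at 3R:30134448, the only highest summit in a coding sequence, and a second of 385. Pglym78, phosphoglycerate mutase, had 524 at 3R:29148329, 13 bp upstream of its start. Phosphoglycerate kinase, the product of Pgk, makes ATP from the triose carbon. Its 4 summits had 431, 391, 335 and 290, and those of 391 and 335 lay nearer the start of Bacc than any start of Pgk.

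Pgi, which interconverts the hexose phosphates, had 309 at 2R:8912450, in an intron 1436 bp from a start. Pfk, phosphofructokinase, the committed step of the pathway, had 293 at 2R:10111129 in its 5′ UTR. Pfk stood just inside the optimal list (rank 5155). Its rank was 4566 in replicate 1 and 8967 in replicate 3, the lowest standing of the 26 highest summits seen in replicate 3. Pyruvate kinase, PyK, which ends glycolysis, had only a pooled summit of 225 (rank 7344), below the end of the optimal list. Hex-C, the other hexokinase of the list, held no summit in either list.

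Both branches off glycolysis that regenerate NAD+ carried strong peaks. Gpdh1, cytosolic glycerol phosphate dehydrogenase, held the highest signal of all listed genes, 3362 at 2L:5944836 (rank 46), in an intron 871 bp downstream of its start. Its replicate signals were 1851 (rank 51) and 1534 (rank 43) in replicates 1 and 3. Further summits in the introns of Gpdh1 had 877 and 276. Ldh, lactate dehydrogenase, had a single summit of 1094 at 3L:6262916, 222 bp upstream of its start, with 673 and 458 in the replicates. Gpo1, the mitochondrial partner of Gpdh1 in the glycerol phosphate shuttle, held no summit in either list.

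All 3 pentose phosphate genes held an optimal summit, with a median highest signal of 1003. Zw, glucose phosphate dehydrogenase, which makes NADPH in the first step, had 1246 at X:19668575 in an intron 1147 bp from the nearest start, and 564 nearer to a start. Pgd, which makes NADPH in the oxidation of phosphogluconate, had 932 at X:2146344, in an intron 981 bp downstream of its start, with 353 and 327 at further summits. Taldo, transaldolase of the non-oxidative branch, had 1003 at 2R:23940794, in an intron 384 bp from its start. In replicates 1 and 3 the signals were 647 and 648 for Zw, 627 and 325 for Pgd and 596 and 413 for Taldo, and every one of them ranked within the highest 1270 of its replicate.

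Of the glycogen and trehalose genes, 5 of 6 held an optimal summit (83.3%, 35.9 to 99.6), with a median highest signal of 937. GlyP, glycogen phosphorylase, which releases glucose units, had 1966 at 2L:2130527, 286 bp upstream of its start, and 1146 and 791 in replicates 1 and 3. Its second summit of 579 lay inside the gene, 3368 bp from a start, and is the one that carries the AAGGTCA printed above. A further summit of 559 lay 52 bp upstream of the start. GlyS, glycogen synthase, the opposing enzyme, had 937 at 3R:15146948, in its 5′ UTR 159 bp from a start, with 531 and 449 in the replicates, and further summits of 777 and 422. Pgm1, phosphoglucomutase, which links glycogen to glycolysis, had 742 at 3L:16128690, 159 bp upstream of its start.

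Treh, trehalase, which splits the blood sugar to glucose, held more summits than any other listed gene. Treh was also the longest listed gene, with a span of 14928 bp, and had 6 transcript starts. The 7 summits ran from 324 to 1168, with the highest at 2R:21075559 in an intron, 106 bp upstream of a start, and 730 and 410 in replicates 1 and 3. Its second summit, of 693, lay nearer to the start of CG10527, and its next, of 593, lay 108 bp from a start of Treh. Tps1, which makes trehalose, had 583 at 2L:4389542 in an intron 1215 bp from its start, with 356 and 312 at further summits. UGP, which makes the UDP-glucose used for glycogen and trehalose, had only a pooled summit of 216 (rank 7758).

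All 4 gluconeogenic genes held an optimal summit, with a median highest signal of 908. PCB, pyruvate carboxylase, the mitochondrial entry to gluconeogenesis and to the refilling of the TCA cycle, had 2192 at 2R:9861127, in an intron 368 bp upstream of a start. Replicate 1 gave it 1437 (rank 76) and replicate 3 gave it 787 (rank 212), the widest ratio of replicate ranks among the highest summits of the listed genes, 2.79. Some lower summits differed more, such as that of 559 at GlyP, which ranked 1392 in replicate 1 and 13408 in replicate 3. A second PCB summit had 684. Pepck1 and Pepck2, phosphoenolpyruvate carboxykinases that lie next to each other, had 1201 at 2R:18536654 and 498 at 2R:18531944, with a second Pepck2 summit of 298. The Pepck1 summit lay 113 bp from its own start and as near to that of CG45087. The gene fbp, fructose bisphosphatase, which reverses the phosphofructokinase step, had 616 at 2L:19763637 in an intron 499 bp from its start, and 314 and 291 beside it.

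The TCA class had the smallest share, with 3 of 7 genes holding an optimal summit (42.9%, 9.9 to 81.6), and the interval overlaps those of all other classes. Idh, the NADP-dependent isocitrate dehydrogenase, had 1244 at 3L:8360740, in an intron 166 bp from a start, with 693 and 546 in replicates 1 and 3, and a second summit of 460. The gene kdn, citrate synthase, had 783 at X:6353746, in an intron 1464 bp from its start, with 475 and 306. Pdhb, the beta subunit of pyruvate dehydrogenase, had 301 at 3R:29112980, 91 bp upstream of its start. It ranked 4979 of the 5723 optimal peaks and 6262 in replicate 1.

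A further 3 TCA genes held only pooled summits. Mdh1, cytosolic malate dehydrogenase, had 265 (rank 5904) and stood just outside the optimal list. Pdha, the alpha subunit of pyruvate dehydrogenase, had 200 (rank 8516), and Mdh2, the mitochondrial malate dehydrogenase, had 119 (rank 14926). The mitochondrial aconitase gene mAcon1 held no summit in either list. Hex-C, Gpo1 and mAcon1 were therefore the only 3 of the 35 listed genes without a summit in either list.

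Both replicate lists held peaks at nearly all of these summits. Of the 58 optimal summits at the 27 genes, 57 lay in peaks that overlapped a peak of each replicate list by at least 1 bp, with that of Gapdh1 the exception. Counting only the 5723 highest peaks of each replicate, 52 of 58 were overlapped in both, against 83.0% of all optimal peaks. The nearest summit of replicate 1 lay a median of 18 bp from the highest summit of each gene, and that of replicate 3 a median of 15.5 bp. For the 26 genes with a summit in both, the ranks differed by a median ratio of 1.38. The optimal list was itself made from both replicates, so these values describe the peaks and are not a separate check.

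**Figure D3:**
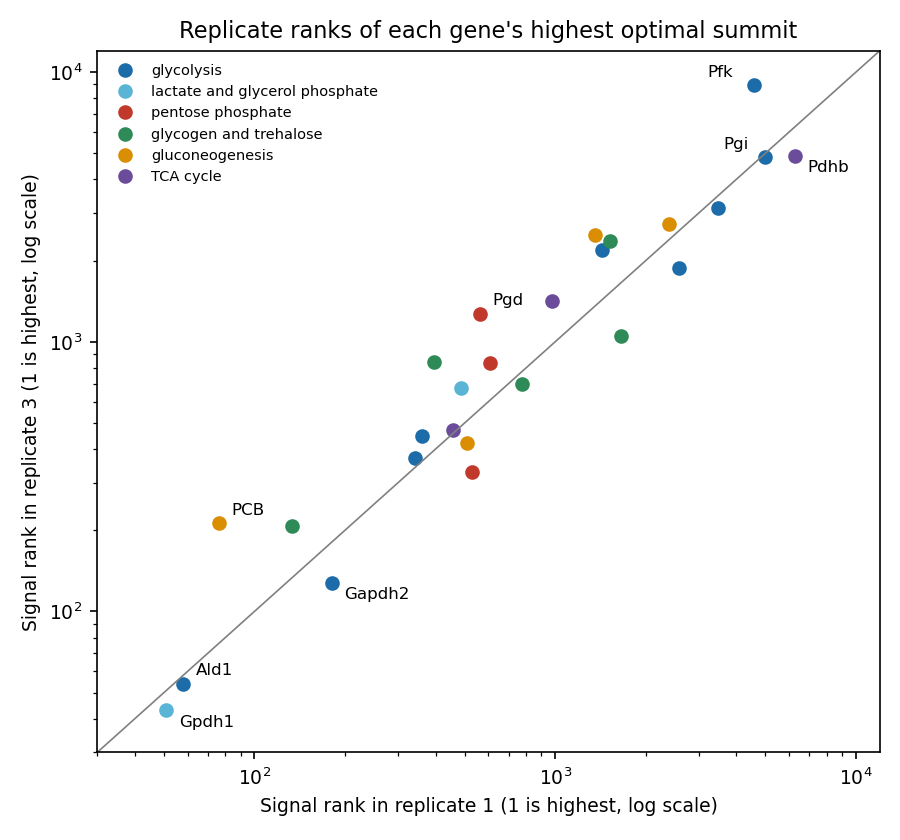
Rank of the highest summit of each listed gene in replicate 1 (horizontal axis) and replicate 3 (vertical axis), both on log scales, for the 26 genes with a summit in both replicates. Gpdh1 (51 and 43) and Ald1 (58 and 54) stand first in both replicates, and Pdhb (6262 and 4895), Pgi (5003 and 4839) and Pfk (4566 and 8967) lie at the far end.

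The summits lay close to transcript starts. Of the 27 highest summits, 21 (77.8%) were within 500 bp of a start of the same gene, against 51.5% for all genes with a summit, and the median distance was 230 bp against 473 bp. The distance is to the nearest of a gene's starts, so a gene with more starts tends to have a shorter one. The listed genes had a median of 2 starts against 1 for all genes, and this was not matched. By annotation 14 lay in introns, 8 outside the gene, 4 in 5′ UTRs and 1 in coding sequence, and none in a 3′ UTR. Of all genes with a summit, 38.2% had the highest one outside the gene and 11.1% in a 5′ UTR. Coding sequence held it in 2.53% and a 3′ UTR in 2.19%. Introns were the most frequent location in both sets, and the split was not tested. Another gene's start was nearer in 1 of the 27, Gapdh1. The highest summit lay downstream of the nearest start in 10 genes (37.0%), against 46.8% of all genes with a summit. At 4 genes, Pgi, Zw, Tps1 and kdn, it lay beyond 1000 bp from any start and inside the gene.

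**Figure D4:**
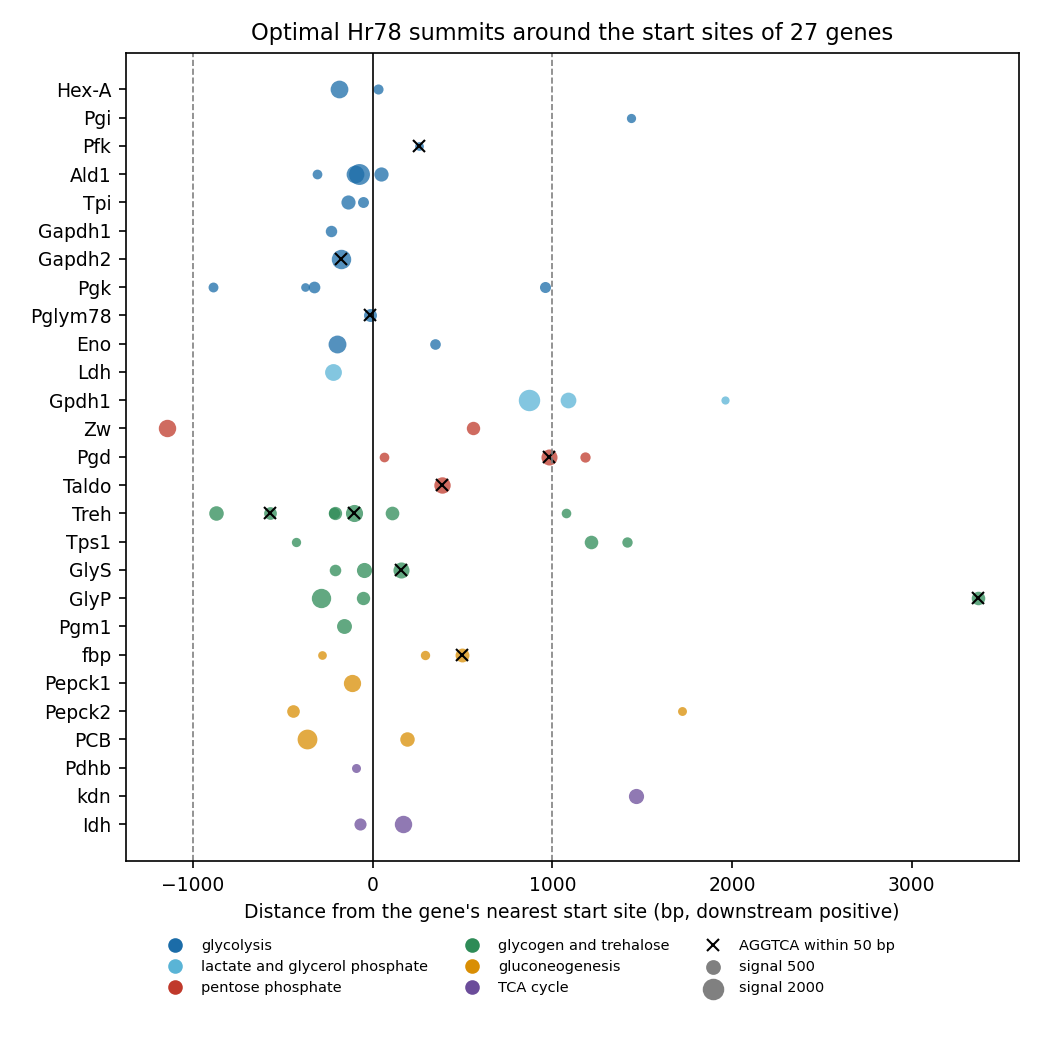
Distance of each optimal summit from the nearest transcript start of its gene (bp, horizontal axis, negative values upstream), with the 27 genes ordered by class down the page, point size following the caller's signal and crosses at summits with AGGTCA within 50 bp. Most summits sit within 500 bp of a start (40 of 58), and the second summit of GlyP is the farthest at 3368 bp.

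Several genes held more than 1 summit. Counting every summit, 16 of the 27 genes had more than 1, and the 58 summits fell in 43 distinct peak regions, none shared by 2 genes. The same count was not made for all genes with a summit, so the number has no share to be read against. The listed genes were also longer than most and had more transcript starts. At 12 of the 58 a stronger summit lay 150 to 250 bp toward lower coordinates. These 12 were the second summits of Hex-A, Ald1, Tpi, Eno, Gpdh1, Pgd, Tps1, GlyS, fbp and PCB and the third summits of Treh and GlyP. Such summits made up 14.6% of the whole optimal list. The nearest replicate 3 summit was the same for the first and second summits of Ald1, as was the nearest replicate 1 summit for those of GlyS. Whether each such summit marks a separate binding site was not tested, so the number of summits at a gene is not a number of sites.

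The hexamer AGGTCA was looked for on both strands within 50 bp of each summit. It lay at 10 of the 58 summits (17.2%, 8.59 to 29.4), against 574 of all 5723 optimal summits (interval 9.26% to 10.8%), and the first interval includes the share of the whole list. In windows of the same width 500 bp away, 1 and 3 of the 58 held it on the lower and higher side, against 2.13% and 2.66% of all optimal summits. Among the highest summits it was present at 8 of 27 (29.6%, 13.8 to 50.2), against 344 of the highest summits of all 2929 genes with one (11.7%), with no test made. The 8 were those of Pfk, Gapdh2 and Pglym78 in glycolysis, Pgd and Taldo in the pentose phosphate pathway, Treh and GlyS in sugar storage, and fbp in gluconeogenesis. No highest optimal summit of the TCA genes, of Ldh or of Gpdh1 held it. Among the 5 genes with a pooled summit only, the highest summits of PyK, UGP and Pdha held AAGGTCA and those of Mdh1 and Mdh2 did not hold AGGTCA. The share over all pooled summits was not computed, so these 5 have no share to be read against. Of the 4 summits above 2000, at Gpdh1, Ald1, PCB and Gapdh2, only that of Gapdh2 held it.

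The longer AAGGTCA, which contains AGGTCA, lay at 5 of 58 summits (8.62%, 2.86 to 19.0) against 4.28% of all optimal summits. The 5 were the summits of Pfk, Taldo and GlyS, the highest summit of Treh and the second summit of GlyP. Of the 4 related hexamers, AGGTCA included, at least 1 lay at 20 of 58 (34.5%, 22.5 to 48.1) against 30.3% of all optimal summits, near the share of the whole list. A direct repeat of those hexamers with a spacer of 1 base, known as DR1, was at 0 of 58 summits, which allows a share of up to 5.17% by a floor of 3 counts and 6.16% by the exact interval, against 1.36% of all optimal summits. This sample is too small to tell the shares apart. The E-box CACGTG, a site of many basic helix-loop-helix factors that reads the same on both strands, lay at 3 of 58 (5.17%, 1.08 to 14.4) against 1.59%, at the lowest summit of Gpdh1 and the second summits of Tps1 and fbp. The Tps1 and fbp summits each had a stronger summit 150 to 250 bp toward lower coordinates. Without such summits the E-box lay at 1 of 46 (2.17%). It lay at 0 of the 27 highest summits, against 1.43% of the highest summits of all genes with one. A match describes letters in a window and does not show that a factor bound there.

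A related hexamer other than AGGTCA stood at the highest summits of Tps1, Pepck1, kdn and Idh, and 3 of them are shown because those summits lacked AGGTCA. Each is 30 bases, 5′ to 3′ on the minus strand of genome release 6 from RefSeq, with the hexamer in capitals. The Tps1 site is 2L:4389521-4389550, the kdn site X:6353764-6353793 and the Idh site 3L:8360741-8360770. The hexamer is GGGTCA at kdn and GGTTCA at Tps1 and Idh.
Tps1: cagacatcgcttGGTTCAgcgcgcatctac
kdn: aataacaaaattGGGTCAaaattacacttg
Idh: cttatataaaccGGTTCAcactccacgcca

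The 59 other genes of the same pathways were shorter than the listed genes, with a median span of 2568 bp against 4452 bp. They held fewer summits, and their median highest signal was 547. An optimal summit was held by 22 of them (37.3%), against 21.0% of all protein-coding genes. No glycolytic gene among the 12 held one, although 3 had pooled summits: Pfrx, which makes the activator of phosphofructokinase, had 229, the glucose transporter Glut1 had 153 and CG7362 had 151. The paralogues Hex-t1, Hex-t2, Ald2 and Pglym87 held none in either list, whereas Hex-A, Ald1 and Pglym78 each held an optimal summit. The listed hexokinase gene Hex-C held none either. Gpdh2 and Gpdh3 held no summit in either list, whereas the listed Gpdh1 held optimal summits. Gpo2 and Gpo3 held none, and neither did the listed Gpo1. Hex-t1 and Hex-t2 are known as testis hexokinases, and expression was not measured here. How reads shared by paralogues were placed is not stated.

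In the remaining pathways some of the other genes held an optimal summit. In the pentose phosphate pathway 3 of 5 did, with 2325 at the transketolase gene CG8036, 1338 at Rpe, ribulose phosphate epimerase, and 366 at Pgls, and the CG8036 summit lay nearest, 202 bp, to the start of the gene p. In glycogen and trehalose metabolism 4 of 8 did, led by glycogenin, Gyg (1235), the branching enzyme AGBE (549) and the debranching enzyme CG9485 (536). In gluconeogenesis 3 of 4 did, with 1378 at the aspartate aminotransferase gene Got2, 381 at Got1 and 368 at Mpc1, a subunit of the mitochondrial pyruvate carrier. In the TCA cycle 12 of 26 did (46.2%, 26.6 to 66.6), against 3 of 7 for the listed TCA genes. The highest were ATPCL (1545), which returns citrate carbon to cytosolic acetyl-CoA, Ogdh (1217), a subunit of oxoglutarate dehydrogenase, and Scsalpha1 (1017), a subunit of succinyl-CoA synthetase. The Ogdh summit lay 1509 bp from its own start and 1259 bp from that of Cpr73D, and the Scsalpha1 summit 3023 bp from its own and 880 bp from that of Acp63F.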

How the data were processed

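Peak lists of Hr78-eGFP ChIP-seq from 2 replicates of whole embryos were used. The deposited text files state that a control alignment was used in peak calling, for each replicate alone and for both pooled, and that an optimal list was thresholded on the irreproducible discovery rate. The 5723 optimal peaks are the highest of 30000 pooled peaks. The caller, the aligner and that threshold were not stated. The signal deposited by the authors is the peak caller's value and was compared within 1 list or by rank. The deposited −log10 q-value was not used to rank peaks. Summits are the authors' deposited offsets in bp from each region's start. No read counts were given, so depth is unknown.

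Coordinates are dm6, per the labels, and no region passed the end of an arm. Genes came from Ensembl release 115 (BDGP 6.54). Calculations used Python 3.11.15, numpy 2.4.6, scipy 1.17.1, pandas 2.3.3 and matplotlib 3.10.9, and were checked on simulated data. Every listed gene is described, with its highest summits up to 3, or with all of them where more help, and at most 3 other pathway genes in a class are named where they held an optimal summit. A neighbour is named where its start was as near as, or nearer than, the listed gene's own. The genes, lists and motifs were chosen with earlier results of these data known, so no test was made over them. Intervals are 95% exact (Clopper-Pearson) and cover counting only, with genes or summits taken as independent. Of 60 other pathway genes listed, 59 were matched. Alternatives changed the replicate, list length, summits per region, start window, motif window, nearest-start rule and replicate distance.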

Additional observations from a re-analysis of the deposited data

How the results depend on the processing

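No paired analysis was possible because both replicates form 1 group. The number of listed genes with an optimal summit was 27 and lay between 22 and 29 over all alternatives. Replacing the optimal list with the 5723 highest peaks of a single replicate gave 26 to 27 genes, and 24 to 25 near starts. It gave 21 for other pathway genes (22 before), 9 to 10 in glycolysis and 2 to 4 in the TCA cycle. The same replacement gave 16.1% to 23.2% of summits with AGGTCA and a median signal percentile of 85.3 to 89.8 (86.6 before). With the whole list of either replicate in place of the pooled list, 32 listed genes held a summit. In the higher-signal 2861 optimal peaks the glycolysis count was 6 (10 before), that of other pathway genes 14 and the median percentile 81.3, with fewer peaks counted. That shorter list lacked Pgi, Pfk, Gapdh1, Pgk and Pdhb. Without replicate 1 Gapdh1 was lost and Mdh1 gained, and without replicate 3 Pdhb was lost. Windows of 2000 bp added Gpo1 and UGP. The share of summits with AGGTCA was 10.3% within 25 bp and 29.3% within 100 bp, and a wider window holds more matches by its width. The share over all summits was not computed for these windows or for a single replicate. Over these settings 13.6% to 24.7% of all genes held an optimal summit. Classes of 3 to 12 genes give wide intervals, and unknown read depth means that a gene without a summit may have one below detection.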
